A study of Mus musculus with 1094 samples.

Results

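The 10 genes described here, Fabp7, Slc1a3, Slc1a2, Apoe, Clu, Aldh1l1, Hopx, Gfap, Aqp4 and Gja1, are widely used as markers of astrocytes. They were taken by gene symbol from 23078 genes measured in single cells of the developing mouse dorsal cerebral cortex, and all 10 were present. Basal progenitors (BP, 5 libraries with 335 cells, from E12.5, E14.5, E16.5, E18.5 and P0) and newborn neurons (NBN, 4 libraries with 208 cells, from E16.5 and E18.5 before birth and P1 and P3 after it) came from Tbr2::GFP mice. Neural stem cells (NSC, 8 libraries with 532 cells, from E10.5, E11.5, E13.5, E15.5, E17.5, E18.5, P0 and P1) came from Hes5::GFP mice. Here a library means all cells of 1 population at 1 stage. The labels give every cell as female, of a C57Bl/6 background and of wild-type genotype apart from its reporter, and they name no animal and no capture day. Each reporter marks the cells in which its promoter is or was recently active, so a sorted population can hold daughters that still carry the fluorescent protein. Values are TPM, the share a gene takes of all transcripts in its cell after correction for transcript length. A cell is said to hold a gene when the gene is at 1 TPM or more. In the GENCODE annotation of GRCm38, Fabp7 lies at chr10:57784881-57788450 and Gja1 on the same chromosome at chr10:56377330-56402513. Slc1a3 lies at chr15:8634124-8710764, Slc1a2 at chr2:102658659-102790784, Apoe at chr7:19696109-19699188 and Clu at chr14:65968483-65981547. Aldh1l1 lies at chr6:90486427-90600203, Gfap at chr11:102887336-102900912 and Hopx at chr5:77086988-77115121.

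Cortical stem cells, called radial glia once neurogenesis begins, make neurons first and turn to astrocytes around birth. Many genes used to mark astrocytes, among them the glutamate transporters and the lipid-binding protein Fabp7, are already expressed in radial glia, whereas Aldh1l1, Gfap and Aqp4 are known from more mature astrocytes. Basal progenitors are neuron-producing daughters of radial glia, and they and newborn neurons are known for neuronal rather than glial genes.

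Before the results, some libraries stand apart from their labels. Hes5 was held by 0 to 2.22% of BP cells, by 0 to 2.56% of NBN cells and by 8.14% to 66.7% of NSC cells. Eomes, the gene of the Tbr2 reporter, was held by 54.7% to 79.2% of BP cells, 10.6% to 22.2% of NBN cells and 10.6% to 64.4% of NSC cells. A neuron profile, meaning that the mean log2(TPM + 1) of newborn neuron genes exceeded that of radial glia genes, was found in 331 of 335 BP cells, 171 of 208 NBN cells and 223 of 532 NSC cells. Among NSC, the E10.5 library had 1 of 88 such cells, E11.5 had 30 of 58, E13.5 had 35 of 66, E15.5 had 78 of 86, E17.5 had 54 of 76, E18.5 had 18 of 66, and the postnatal libraries had 3 of 45 (P0) and 4 of 47 (P1). Erythroid markers were found in 32 of the 58 NSC cells at E11.5 and in 18 of the 88 at E10.5. In the NBN P3 library 9 of 40 cells had a neuron profile, while 19 of its cells had microglia markers and 13 had meningeal markers. TPM keep no sequencing depth. The median number of genes held per cell was lowest in NBN P1 (3189) and highest in NBN E16.5 (5764). In late NSC libraries it was 3428 (E18.5), 5076 (P0) and 3371 (P1).

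The genes met a measure of onset in NSC at different stages, from Fabp7 at the first stage to a group at birth. Onset was taken as the first NSC stage from which that library and every later one had at least 25% of its cells holding the gene. By this measure Fabp7 was on from E10.5, Slc1a3 from E13.5, Slc1a2 from E15.5, Apoe from E18.5, and Clu, Hopx, Aldh1l1 and Gja1 from P0. Aqp4 and Gfap never met it. Slc1a3 had already been held by 29.5% of NSC cells at E10.5, but by 8.62% at E11.5 (17.9% of the 28 cells there without a neuron profile). Slc1a2 passed narrowly, with 26.7% at E15.5, where 0 of the 8 cells without a neuron profile held it. In NSC cells without that profile its 25% onset was E17.5, and that of Apoe was E15.5. In those cells Clu was held by 37.5% at E15.5, 27.3% at E17.5 and 22.9% at E18.5. Hopx was held by 25.0%, 22.7% and 22.9% of them at these stages. Both reached 25% at E15.5, from 8 cells, yet their onset by the measure stayed at P0. Gja1 did not begin at P0: it had the highest E10.5 share of the 10, 84.1%, was at 10.5% at E15.5 and at 42.2% at P0. At a stricter share of 50%, Fabp7 was on from E17.5, Slc1a3 from E18.5 and Slc1a2, Apoe and Clu from P0, and none of the other 5 met it. In NSC cells without a neuron profile the onset at 50% was E10.5 for Fabp7 and E15.5 for Slc1a3. For Clu it was P1 with the level raised to 10 TPM, and also with all cells kept. These onsets describe 1 library per stage, so stage and capture cannot be told apart. In a mean over a library, fewer cells with a gene and less RNA per cell cannot be told apart either, so shares of cells are given beside means.

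Across the 8 NSC libraries 8 of the 10 genes rose with age at an adjusted p under 0.05, against 1.21% of the 14093 genes tested (limma, library means on the log2(TPM + 1) scale, Benjamini-Hochberg adjustment over all genes). All 10 passed the filter on low values, a mean of 1 TPM or more in at least 4 of the 17 libraries. None of the 10 fell, beside 0.234% of all genes, and counting both directions 1.44% of all genes were called. Their median slope was 0.64 log2 units per day, beside 0.0068 for all genes. The slopes that did not pass were those of Aqp4, 0.45 ± 0.15 (SE) per day with an adjusted p of 0.171, and Gja1, 0.05 ± 0.18 with an adjusted p of 0.947. Without the NSC P1 library 4 of the 10 passed, and 0.707% of all genes rose. Without NSC E11.5 it was 5 of the 10, and 0.643% of all genes. With each library left out in turn, only the slopes of Aldh1l1, Slc1a3, Slc1a2 and Fabp7 passed in all 17 fits. The p-values measure the spread of libraries around the fitted lines, which may be technical.

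Fabp7 encodes a fatty acid binding protein typical of radial glia, and it had the highest level of the 10. In NSC it averaged 121 TPM at E10.5, 202 at E11.5, 705 at E13.5, 578 at E15.5, 1513 at E17.5, 6501 at E18.5, and postnatally 6133 (P0) and 10754 (P1). The 3 latest libraries lay above every earlier one. In NSC cells without a neuron profile Fabp7 averaged 122, 383, 885, 4045, 3478, 8601, 6509 and 11752 TPM over these 8 stages. The E15.5 value there rests on 8 cells, of which 87.5% held the gene. Fabp7 was held by 56.8% of all E10.5 NSC cells, and later by 32.8% (E11.5), 72.7% (E13.5), 48.8% (E15.5) and 81.6% (E17.5), and all 45 cells of the P0 library held it. Its slope was 0.63 ± 0.09 log2 units per day (SE, 8 libraries; limma adjusted p = 0.00286).

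Slc1a3 and Slc1a2 encode the glutamate transporters GLAST and GLT-1, which clear glutamate from the extracellular space. Slc1a3 averaged 33.0 TPM in E10.5 NSC, 24.3 at E11.5, 31.3 at E13.5, 156 at E15.5, 210.0 at E17.5, 741 at E18.5, and postnatally 1641 (P0) and 1700 (P1). Over whole libraries the first 3 means lay close together and each later one was higher. At E11.5 a single cell at 1209 TPM gave 85.7% of the sum. There 8.62% of cells held Slc1a3, against 29.5% at E10.5 and 30.3% at E13.5. In NSC cells without a neuron profile Slc1a3 averaged 33.3, 50.4, 59.7, 1172, 574, 1013, 1739 and 1852 TPM. The E15.5 value of 1172 TPM, from 8 cells, was above those at E17.5 and E18.5. The whole-library slope of Slc1a3 was 0.65 ± 0.10 log2 units per day (SE, limma adjusted p = 0.00385). Over whole libraries Slc1a2 was lower throughout, at 5.22, 5.32, 8.82, 22.7, 33.4, 69.9, 160 and 199 TPM over the same 8 stages, each stage above the last. At E15.5 a single cell at 1213 TPM gave 62.0% of the sum, so the rise at that stage rests largely on 1 cell. In NSC cells without a neuron profile Slc1a2 averaged 3.61, 4.76, 2.74, 0.281, 59.6, 75.0, 171 and 218 TPM. That course was lowest at E15.5, where 0 of 8 such cells held it, and was higher from E17.5. The whole-library slope of Slc1a2 was 0.52 ± 0.08 log2 units per day (SE, limma adjusted p = 0.00330). Shares of cells in E18.5, P0 and P1 NSC were 65.2%, 97.8% and 80.9% for Slc1a3, and 40.9%, 95.6% and 76.6% for Slc1a2 at those stages. A gene on the opposite strand shares exon bases with Slc1a2 in the GENCODE annotation, and the labels do not describe a kit that marks strand, so its values are uncertain by that overlap.

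Apoe and Clu encode secreted apolipoproteins, both abundant in mature astrocytes. Both had an early trace: Apoe was held by 21.6% of E10.5 NSC cells and Clu by 18.2%, against 1.72% and 3.45% at E11.5. Among the 28 E11.5 cells without a neuron profile, 1 held Apoe and 0 held Clu. Apoe averaged 20.2 TPM at E10.5, 1.19 at E11.5, 6.56 at E13.5, 0.278 at E15.5, 86.3 at E17.5, 297 at E18.5, and postnatally 869 (P0) and 1146 (P1). It was thus lowest at E15.5, the library richest in cells with a neuron profile, where the 8 cells without it averaged 2.03 TPM. Its slope was 0.80 ± 0.18 log2 units per day (SE, limma adjusted p = 0.0318). Clu ranged from 3.65 TPM at E11.5 to 1599 TPM at P0 in NSC, with a median of 89.8 TPM over the 8 libraries. It was at 134 TPM in the E18.5 library against 1599 (P0) and 1294 (P1). The Clu difference of P0 and P1 over E17.5 and E18.5, 3.37 ± 0.88 log2 units, did not pass (SE, limma adjusted p = 0.450). That of E17.5 and E18.5 over E13.5 and E15.5, 2.34 ± 0.88 (SE), did not pass either. The slope of Clu over the 8 libraries was 0.66 ± 0.12 (SE, limma adjusted p = 0.00777). Leaving out NSC E11.5 put the adjusted p of Apoe at 0.118 and of Clu at 0.0558. Leaving out NSC P1 put them at 0.132 and 0.0534.

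Aldh1l1, an enzyme of folate metabolism, was among the latest and most selective of the 10. No NSC cell of the 88 at E10.5, 58 at E11.5 and 66 at E13.5 held it; at E10.5 this allows a share of up to 3.41%. A single E15.5 cell with 854 TPM made the whole of that library's mean of 9.93 TPM. Mean levels were 11.1 TPM (E17.5), 23.5 (E18.5), 163 (P0) and 279 (P1). It was held by 7.89% of cells at E17.5 and 9.09% at E18.5, then by 55.6% of P0 cells (25 of 45, 95% exact interval 40.0% to 70.4%) and 36.2% of P1 cells (17 of 47, 22.7% to 51.5%). The P0 share was above the P1 share while the P0 mean was below the P1 mean, so no order is read between those stages. Aldh1l1 had the steepest slope of the 10, 0.83 ± 0.10 log2 units per day (SE, limma adjusted p = 0.000419). Exons of Aldh1l1 share bases with those of other annotated genes on both strands.

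Gfap, the intermediate filament protein of astrocytes, came up in few cells. It was listed at 0 in the E10.5, E11.5 and E13.5 NSC libraries and averaged 0.00797 TPM at E15.5, 6.01 at E17.5, 56.4 at E18.5, and postnatally 17.1 (P0) and 132 (P1). At E17.5 and E18.5 the mean rested on 1 cell each, which gave 92.8% and 80.2% of the library's sum. The shares of NSC cells holding it were highest after birth, 17.8% for the P0 library (8 of 45) and 21.3% for P1 (10 of 47). Its slope was 0.69 ± 0.14 log2 units per day (SE, limma adjusted p = 0.0170), and without NSC P1 its adjusted p was 0.0944.

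Fabp7 and Slc1a3 had the earliest onsets by the measure above, and Aldh1l1 and Gfap were among the latest members. To show the sequence at their starts, the 250 bases before the RefSeq start (mouse build GRCm38.p6) follow. Each is written 5′ to 3′ on the gene's own strand. Capitals mark matches, on either strand, to TGGGAA (the core of the site bound by RBPJ, the DNA-binding partner of Notch), TTCNNNGAA (the STAT site), TATAAA (the TATA box) and GGGCGG (the GC box).
Fabp7, chr10:57784673-57784922, strand +: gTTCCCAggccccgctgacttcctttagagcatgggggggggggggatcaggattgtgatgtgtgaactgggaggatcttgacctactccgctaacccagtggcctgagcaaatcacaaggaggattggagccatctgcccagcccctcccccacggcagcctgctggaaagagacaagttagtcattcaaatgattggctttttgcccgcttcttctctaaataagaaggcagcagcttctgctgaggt
Slc1a3, chr15:8710808-8711057, strand -: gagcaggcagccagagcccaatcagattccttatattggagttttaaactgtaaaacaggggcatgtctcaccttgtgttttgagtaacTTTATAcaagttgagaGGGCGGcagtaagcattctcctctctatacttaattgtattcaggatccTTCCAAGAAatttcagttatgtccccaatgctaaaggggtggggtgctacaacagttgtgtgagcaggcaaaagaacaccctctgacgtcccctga
Aldh1l1, chr6:90550543-90550792, strand +: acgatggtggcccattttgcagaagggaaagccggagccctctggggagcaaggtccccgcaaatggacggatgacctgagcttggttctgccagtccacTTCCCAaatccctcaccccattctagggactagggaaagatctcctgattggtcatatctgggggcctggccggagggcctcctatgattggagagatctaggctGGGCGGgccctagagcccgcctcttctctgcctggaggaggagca
Gfap, chr11:102897201-102897450, strand -: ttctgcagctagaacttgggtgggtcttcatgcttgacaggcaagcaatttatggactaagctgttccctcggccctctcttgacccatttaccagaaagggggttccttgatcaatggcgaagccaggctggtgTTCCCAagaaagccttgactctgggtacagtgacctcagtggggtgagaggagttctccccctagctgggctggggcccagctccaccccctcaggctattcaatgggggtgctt
TGGGAA matched once, on the opposite strand, in each of Fabp7, Aldh1l1 and Gfap. Of 32851 windows of 250 bases in the same RefSeq table, 21.59% hold it. Slc1a3 held the STAT match, found in 7.02% of windows, with a TATA match (12.37%) and a GC box (32.74%). A GC box also lay in the Aldh1l1 window. TTGGCA, a nuclear factor I half-site found in 12.28% of windows, matched none of these 4. These are letter matches and describe the windows alone. The Aldh1l1 and Gfap windows lie inside the GENCODE spans of these genes given above. Promoter windows of 8 of the 10 genes were examined.

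Hopx, a homeodomain protein without DNA binding of its own that marks outer radial glia and adult stem cells, had its highest NSC mean at E18.5, before any of the other 9. Its NSC levels ran from 0.183 TPM at E11.5 to 83.5 TPM at E18.5, with 34.6 TPM at P0 and 49.0 TPM at P1. Its shares of cells were 19.7% (E18.5), 37.8% (P0) and 34.0% (P1). A single cell gave 63.3% of the P0 sum. The slope was 0.53 ± 0.12 log2 units per day (SE, limma adjusted p = 0.0359), and with each library left out in turn it failed the threshold in 10 of 17 fits, with adjusted p-values up to 0.124. A gene on the opposite strand, Hopxos, shares exon bases with it, so its values are uncertain by that overlap.

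Aqp4, the water channel of astrocyte endfeet, was nearly silent before birth. NSC libraries from E10.5 to E18.5 lay between 0.0187 and 3.61 TPM, and the postnatal ones at 70.8 TPM at P0 and 28.2 TPM at P1. These ranges lay apart, but how many of all genes do the same was not counted. The Aqp4 step from E17.5 and E18.5 to P0 and P1, 4.01 ± 1.07 log2 units, did not pass (SE, limma adjusted p = 0.479). Aqp4 was held by 3.03% of the E18.5 NSC cells, 40.0% of those at P0 and 21.3% of those at P1. Gja1, which encodes the gap junction protein connexin 43, followed another course. Of the E10.5 NSC cells 84.1% held it (74 of 88), then 31.0% (E11.5), 43.9% (E13.5), 10.5% (E15.5), 9.21% (E17.5), 16.7% (E18.5), 42.2% (P0) and 27.7% (P1). Its mean ranged from 29.1 TPM at E15.5 to 262 TPM at P0, with 197 TPM at E10.5. Among NSC cells without a neuron profile the shares were 53.6% (E11.5), 61.3% (E13.5) and 62.5% (E15.5), then 18.2% (E17.5), 22.9% (E18.5), 45.2% (P0) and 27.9% (P1).

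**Figure D1:**
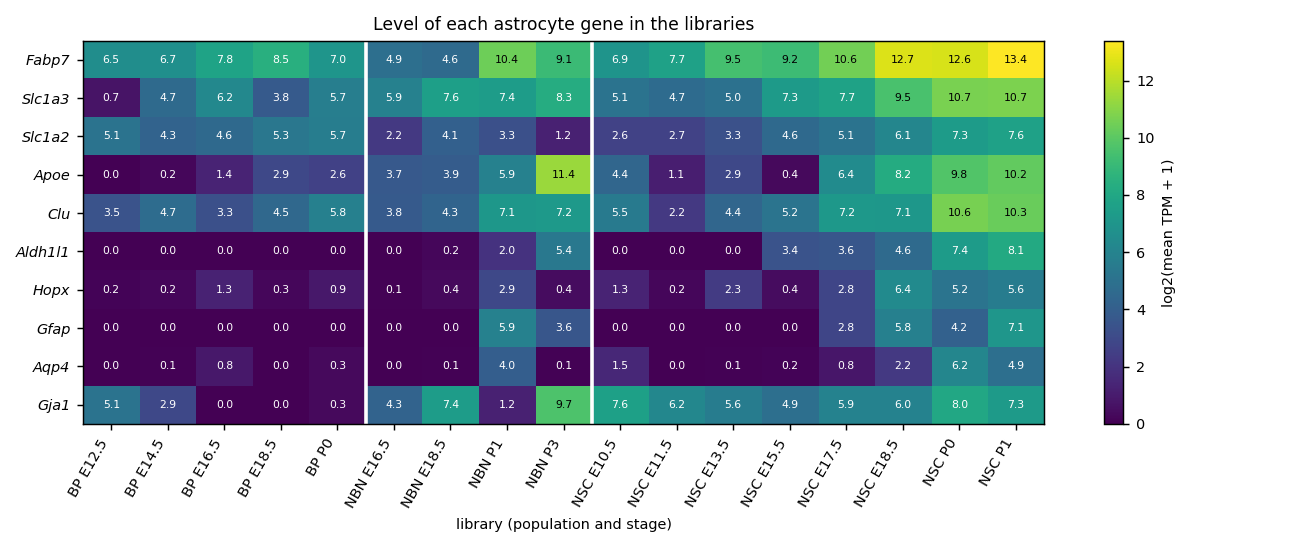
Level of each gene, log2(mean TPM + 1), in the 5 BP, 4 NBN and 8 NSC libraries. Columns are libraries in order of stage within a population and rows are genes. Aldh1l1 reaches 7.4 and 8.1 in the last 2 NSC columns and stays at 0 in all BP columns, and Apoe is highest in the NBN P3 column.

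Pairs of stages within NSC were also compared. For E17.5 and E18.5 over E13.5 and E15.5, all 10 differences were positive, with a median of 2.36 log2 units beside -0.04 for all genes. For P0 and P1 over E17.5 and E18.5 all 10 were again positive, with a median of 1.97 beside -0.12. Some of these uncalled directions turned under alternatives: Gja1 in the first of these steps, and Gfap and Hopx in the other. For E13.5 and E15.5 over E10.5 and E11.5, 7 of 10 were positive, with a median of 0.74 beside 0.28, and in at least 1 alternative 5 of the 10 turned and 2, Aldh1l1 and Gfap, were at 0. By limma 0 of 10 passed in any of the 3 steps, where 5, 4 and 1 had an unadjusted p under 0.05, taking the steps in the order given. Of all genes 0%, 0.0142% and 0.0355% passed, and 535, 911 and 859 of 14093 had an unadjusted p under 0.05. On simulated data of P0 and P1 over E17.5 and E18.5, with 2 libraries a side, 33.3% of changes of 4 log2 units were recovered and 0% of changes of 2. With the mean over cells of log2(TPM + 1) as the library value, 6 passed for P0 and P1 over E17.5 and E18.5: Aldh1l1, Slc1a3, Slc1a2, Gfap, Clu and Aqp4, by 0.97 to 4.33 log2 units, beside 0.397% of all genes that passed upward under that setting.

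At the level of single cells, more of the 10 genes were held per NSC cell after birth. A median of 6 of the 10 were held per cell in NSC P0 and 5 in NSC P1, against 2 or fewer in every earlier NSC library. Cells holding 5 or more made up 9 of 76 in the E17.5 library, 16 of 66 in E18.5, 35 of 45 in P0 and 28 of 47 in P1. BP cells held a median of 1. Just 2 BP cells, both at P0, held 5 or more. A single NSC P1 cell held all 10. The number held also moves with the genes detected per cell, which differ between stages as given above, and that part was not tested. It moves with the share of each gene as well. Whether the genes met in the same cells more often than their shares imply was not tested.

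**Figure D2:**
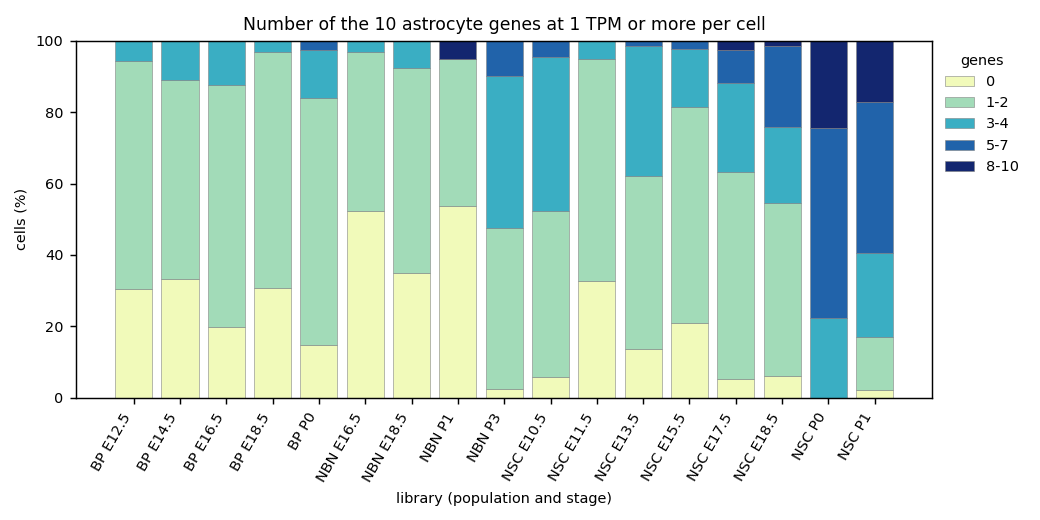
Share of cells (%) in each library by how many of the 10 genes they hold at 1 TPM or more. Libraries are ordered BP, NBN, NSC. The NSC P0 and P1 columns are dominated by cells with 5 or more genes, at 77.8% and 59.6%, and in BP the share is 0 except at P0, where it is 2.67%.

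Among the 92 postnatal NSC cells Fabp7 was held by 89 and Slc1a3 by 82, so that near-complete overlap with these genes is given for any gene. Of the 42 cells with Aldh1l1 all held Slc1a3 and Fabp7, and of the 18 with Gfap 18 held Slc1a3 and 17 Fabp7. Slc1a2 was held by 28 of 28 Aqp4 cells and 59 of 66 Apoe cells, and Slc1a3 by 49 of 52 Clu cells. Among the late genes, 12 cells held both Aldh1l1 and Gfap, 30 Aldh1l1 without Gfap and 6 Gfap without Aldh1l1, and Gfap and Aqp4 were both held by 8 cells.

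At E17.5 the 22 of 76 NSC cells without a neuron profile gave 15.4% of the Gja1 sum, 51.6% of the Slc1a2 sum and 66.5% or more of the sums of the other 8 genes. A single cell with a neuron profile, at 3081 TPM, gave 66.9% of that Gja1 sum. By count, Gja1 was held by 4 of the 22 cells without the profile and by 7 of all 76. The 22 cells gave 94.4% of the Aldh1l1 sum, 79.3% of the Apoe sum and 79.1% of the Slc1a3 sum. Of those cells 22.7% held Aldh1l1 and 72.7% held Slc1a3, against 1.85% and 31.5% of the 54 cells with a neuron profile. Slc1a2 differed less, held by 54.5% of cells without and 46.3% of cells with the profile. At E18.5 the 48 cells without the profile gave from 78.0% (Slc1a2) to all (Gfap, Clu, Aqp4, Gja1) of a gene's sum. At E15.5 all but 0.115% of the Slc1a2 sum came from cells with a neuron profile. Slc1a3 and Fabp7 were left out of the genes that define the profile, but the cells of 1 library are not replicates and no test was made. Markers of the oligodendrocyte lineage, which late stem cells also give rise to, were found in 12 of the 66 E18.5 NSC cells, 6 of the 45 P0 cells and 9 of the 47 P1 cells. None of the 12 cells at E18.5 held Aldh1l1, Apoe or Aqp4, while all 12 held Fabp7 and 9 held Slc1a3.

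Basal progenitors lacked most of the late genes. Aldh1l1 was listed at 0 in every cell of all 5 BP libraries; 0 of 75 cells at P0 allows a share of up to 4.0%. Gfap was held by 1 of 335 BP cells, at 1.60 TPM. Apoe was held by 7 BP cells, Aqp4 by 9, Gja1 by 13, Clu by 17 and Hopx by 22. Of the 13 BP cells with Gja1, 8 were at E12.5 and 4 at E14.5, and none of the 81 cells at E16.5 or 62 at E18.5 held it.

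At P0, where BP and NSC were sampled at the same stage with a median of 5239 and 5076 genes per cell, the share of cells was lower in BP for all 10 genes. Apoe was held by 2.67% of BP cells (95% exact interval 0.325% to 9.30%) against 73.3% of NSC cells (58.1% to 85.4%). Fabp7 was held by 37.3% of BP cells against 100% of NSC cells. Slc1a3 stood at 32.0% in BP and 97.8% in NSC, Clu at 5.33% and 51.1%, and Gja1 at 1.33% and 42.2%. Hopx was held by 13.3% in BP and 37.8% in NSC, and Aqp4 by 6.67% and 40.0%. With 1 library a side these are values with no replicate check, and the intervals cover counting error only.

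Fabp7, Slc1a3 and Slc1a2, the 3 genes with the earliest onset over whole NSC libraries by the measure above, were not absent from BP. Gja1, held by 84.1% of E10.5 NSC cells, is not among them because its later shares did not stay at the required level. Slc1a2 was held by 56.9% (E12.5), 40.0% (E14.5), 51.9% (E16.5), 38.7% (E18.5) and 53.3% (P0) of BP cells. The 1 TPM cut lies within a low signal for this gene: its median over BP cells was 0.601 to 1.41 TPM. In NSC libraries 95.5% to 100% of cells had a value above 0. At 10 TPM the BP shares of Slc1a2 were 36.1%, 17.8%, 24.7%, 29.0% and 24.0%. Its BP means were 33.6, 18.4, 23.2, 38.5 and 50.3 TPM, within the NSC range of 5.22 to 199 TPM. At E12.5 the BP share was above those of the E11.5 and E13.5 NSC libraries, 17.2% and 21.2%. Fabp7 was held by 20.8% to 42.0% of BP cells and Slc1a3 by 1.39% to 32.0%. Cells that held Slc1a3 in BP P0 had a median of 103 TPM, against 1261 TPM in NSC P0.

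Comparing BP at E16.5 and E18.5 with NSC at E17.5 and E18.5, all 10 differences were negative, with a median of -3.72 log2 units beside 0.01 for all genes. By limma 8 of the 10 had an unadjusted p under 0.05, beside 871 of all 14093 genes. After adjustment 0 of 10 passed, with 0.0142% of all genes called. The nearest was Fabp7, at 217 and 350 TPM in BP against 1513 and 6501 TPM in NSC, a difference of -3.50 ± 0.62 (SE, n = 2 libraries each; limma adjusted p = 0.124). Without NSC E17.5 that difference passed at an adjusted p of 0.0446 (0.0286% of all genes lower there), and without the cells of neuron profile in NSC at 0.0419 (0.115%). Age slopes were lower in BP than in NSC for all 10 genes, by a median of -0.44 per day beside 0.0075 for all genes. The sign turned in 1 alternative each for Slc1a3 (without BP E18.5), Apoe (pseudocount of 0.1) and Gja1 (mean over cells of log2 values). In that comparison 0 of 10 passed by limma, and 0.0071% of all genes were called. An unadjusted p under 0.05 was found for 5 of the 10, beside 549 of all 14093 genes. Within BP itself 0 of 10 slopes passed, and 0% of all genes passed. There 2 of the 10 had an unadjusted p under 0.05, beside 506 of all 14093 genes.

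**Figure D3:**
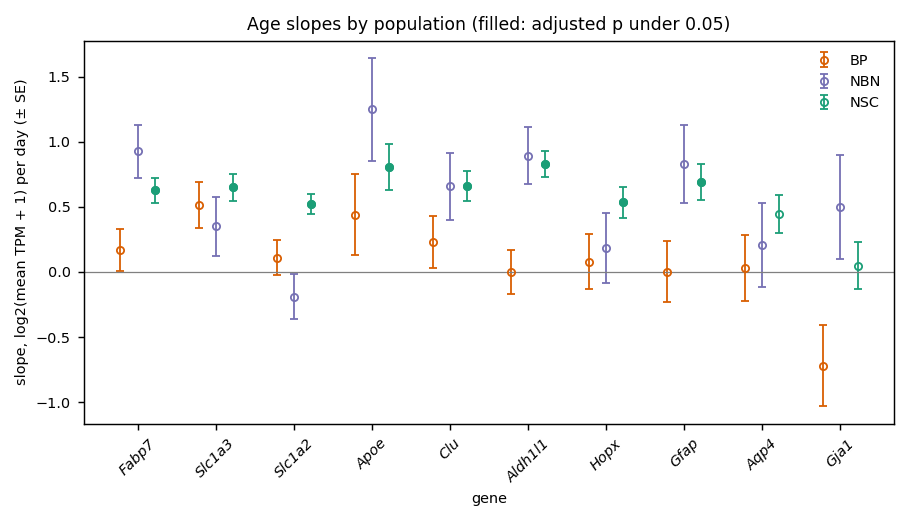
Age slope of each gene in BP, NBN and NSC, in log2(mean TPM + 1) per day with its SE from limma. Filled points have an adjusted p under 0.05. The 8 filled points are all in NSC, and the BP slopes lie below the NSC slopes for every gene.

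In newborn neurons at E16.5 and E18.5, Aldh1l1 was held by 1 of 129 cells and Gfap by none. Fabp7 was at 28.7 and 23.9 TPM in these NBN libraries, against 1513 and 6501 TPM in NSC at E17.5 and E18.5. The difference of -6.85 ± 0.62 log2 units (SE, n = 2 libraries each, limma adjusted p = 0.000837) made Fabp7 the 1 of 10 genes that fell, beside 0.0851% of all genes. It passed in all 17 fits with 1 library left out. A further 6 of the 10 had an unadjusted p under 0.05, beside 1289 of all 14093 genes. None of the 10 differences was positive, though that of Gja1 turned under 3 alternatives. Without the cells of neuron profile in NSC, Gfap and Hopx passed too, each at an adjusted p of 0.0362 (0.452% of all genes lower there). Slc1a3 was at 59.2 and 187 TPM in NBN and 210.0 and 741 TPM in NSC. Gja1 was at 18.4 and 169 TPM in NBN and 60.6 and 60.9 TPM in NSC. In NBN E16.5 a single cell with meningeal markers made 99.97% of its Gja1 sum, and at E18.5 a cell with mural and meningeal markers made 60.8%.

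In the NBN P1 library the median number of the 10 genes held per cell was 0. Of its 39 cells, 2 lacked a neuron profile and held 8 of the 10 genes each. They gave all of the Aldh1l1, Gfap and Clu sums, 98.5% of the Hopx sum, 97.4% of the Aqp4 sum and 87.1% of the Fabp7 sum. In the other 37 cells Aldh1l1, Gfap and Clu were at 0, and Fabp7 averaged 184.8 TPM, against 1363 TPM with all 39 cells. Slc1a3 was less concentrated, held by 6 of those 37 cells.

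At P3 NBN cells held a median of 3 of the 10 genes. Apoe was held by 35 of 40 cells, at a mean of 2656 TPM, the highest of any library. The 19 cells with microglia markers, of which 18 held it, gave 67.0% of that sum, and 1 of them with 30767 TPM gave 29.0% of it. All 10 microglia genes of the list were above 0 in this library and their summed level was 10675 TPM, against 4.51 to 32.8 TPM elsewhere. Other types stood apart there too: the choroid plexus and ependymal genes summed to 11392 TPM (at most 112 elsewhere), with 3 or more of them in 1 cell, the mural genes to 1338 (at most 140 elsewhere) and the endothelial genes to 457 (at most 12.0 elsewhere). Their part in the levels of the 10 genes was not tested. Gja1 was held by 23 of these 40 cells, among them all 13 with meningeal markers, which gave 74.2% of its sum. The 7 meningeal genes summed to 1830 TPM in NBN P3 and to 0.984 to 150 TPM in the other libraries. Slc1a3 was held by 20 of the 40 cells, 10 of them with meningeal markers. Aldh1l1 was in 1 cell with 1626 TPM, and Gfap in another with 436 TPM. Neither of these cells had other-type markers or a neuron profile, and they held 5 and 7 of the 10 genes. Slopes with age in NBN passed for 0 of 10 genes by limma, and 0.575% of all genes were called. An unadjusted p under 0.05 was found for 5 of the 10, beside 2833 of all 14093 genes.

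Other astroglial genes also rose with age in NSC. Of a list of 40, 37 could be tested, of which 22 rose, none fell and 15 did not pass, beside 1.21% of all genes that rose, with a median slope of 0.51 log2 units per day. The list was drawn up with results of these samples known, so it is not independent of them. Sparcl1, a secreted matricellular protein, had the steepest slope of those named, 1.05 ± 0.10 per day (SE, limma adjusted p = 0.000104), at 0.254 TPM at E10.5 and 769 TPM at P1. Tnc, an extracellular matrix protein, rose by 0.96 ± 0.10 per day (SE, limma adjusted p = 0.000146) and reached 454 TPM at P0. Slco1c1, a thyroid hormone transporter, was listed at 0 in every NSC library up to E15.5 and averaged 57.8 TPM at E17.5. Aldoc, an aldolase of astrocytes, averaged 0 to 5.73 TPM in BP libraries and reached 3036 TPM in NSC P1.

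Genes whose levels over the 17 libraries were most like those of a member were found by Pearson's r among 12646 genes, as a description. Closest to Aqp4 were Mlc1 (0.93) and Kcnj10 (0.92), a membrane protein and a potassium channel of astrocytes. Fabp7 was most like Mt3 (0.92), a metallothionein, and Slc1a3 most like Tnc (0.88). Clu was followed by Tspan7 (0.91), Hopx by Dio2 (0.92), the enzyme that activates thyroid hormone, and Gfap by Olig1 (0.94), an oligodendrocyte lineage factor. Apoe was most like Slc38a3 (0.95), a glutamine transporter, and Aldh1l1 most like Ccdc80 (0.94). The nearest to Slc1a2, Kcnip3, had an r of 0.89. Gja1 was nearest to Ppic (0.95), and both levels include the NBN P3 library described above. The libraries share populations and cells of mixed type, so no test was made.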

How the data were processed

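Single cells were sorted, captured on a microfluidic array and sequenced by the submitters. The deposited tables hold TPM per gene and cell, and the submitters' processing notes give kallisto 0.43.0 as a tool and both GRCm38.p2 and mm10 as builds. In 7 nearly empty cells the deposited values are whole numbers throughout, recorded as a score. TPM keep no depth, so depth is unknown, no count model was fitted, and shares could not be compared at a fixed depth. Precision is given by cells per library and exact binomial (Clopper-Pearson) 95% intervals, which cover counting error only. The limit beside a share of 0 is 3 cells of the total.

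Cells with at least 500 genes at 1 TPM were kept, 1075 of 1094. None of the 19 left out held a member. A library's value was log2(mean TPM + 1), a scale that understates changes of low genes. Models were fitted over all 17 libraries with limma 3.58.1 in R 4.3.3 (eBayes with a trend, two-sided, Benjamini-Hochberg adjustment over 14093 genes, threshold 0.05). The slope model had a separate age slope per population. Age was the embryonic day, and 18.5 plus the labelled days after birth. The binned contrasts used a group per stage bin. Fits were tested on simulated data: for NSC slopes of 0.8, 0.4 and 0.2 per day 92.4%, 52.2% and 8.96% of changed genes were recovered, and for 4 log2 units between BP and NSC 37.9%. Marker cells had 3 or more genes of a list at 10 TPM. Named genes are all members, the other astroglial genes with the steepest called slopes, and the genes most like each member. Members and lists were chosen with earlier results of these data known. Coordinates and exon overlaps are from GENCODE M21 (GRCm38), promoters from RefSeq (GRCm38.p6). Tables were made with pandas 2.3.3, NumPy 2.4.6 and SciPy 1.17.1 under Python 3.11.15.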

Additional observations from a re-analysis of the deposited data

Results flagged for a closer look

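Of 30 groups of member levels (log2(mean TPM + 1)) screened for a library far from the others by Dixon's criterion, 3 stood out. By chance the criterion flags about 1 in 20 groups of normally distributed values. Many of these levels lie at or near 0, so that rate need not hold here. Hopx was at 2.90 in NBN P1, with the next NBN library at 0.45. Aqp4 was at 3.98 in NBN P1, with the next NBN library at 0.081. In both cases 1 cell, the same one, gave 97.0% of the Hopx sum and 97.4% of the Aqp4 sum of the library. Gfap was at 0.028 in BP E16.5 and at 0 in the other BP libraries, owing to 1 cell at 1.60 TPM. With all other libraries of a group at 0, any value above 0 is flagged.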

How the results depend on the processing

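No paired analysis was possible because the numbers in the labels count cells within a library and no animals are named. In the NSC slope and the differences between groups, no alternative reversed the direction of a called gene. Of uncalled ones, the direction turned or went to 0 in at least 1 alternative for 1 gene in the NSC slope, 3 in the difference of slopes, 7, 1 and 2 in the steps to E13.5 and E15.5, to E17.5 and E18.5 and to P0 and P1, 0 in late BP against NSC and 1 in late NBN against NSC. The number of members that rose with age in NSC, 8, became 5 with no filter on low genes and ranged from 4 to 8 when 1 library was left out. Of all genes 0.528% rose with no filter, and 0.559% to 1.72% when 1 library was left out, beside 1.21% in the main fit. Gfap lost its call with a pseudocount of 10 (adjusted p = 0.0570) and with no filter (0.0542). Apoe lost it with a pseudocount of 0.1 (0.0777), quantile normalization (0.0545), no filter (0.0972) and when BP and NBN kept only neuron profile cells (0.132), an alternative chosen after seeing the data. Hopx lost it with a pseudocount of 0.1 (0.107), quantile normalization (0.0680) and no filter (0.0854). Among the fits without 1 library, Hopx failed without NSC E10.5, E11.5, E13.5, E18.5, P0 or P1, BP E12.5, E14.5 or P0, or NBN E18.5 (0.0506 to 0.124), Apoe without NSC E11.5, E13.5, E18.5, P0 or P1 (0.0638 to 0.132), Clu without NSC E11.5 or P1, and Gfap without NSC P1. Aqp4 passed with the mean over cells of log2(TPM + 1) (0.0297), where the step to P0 and P1 gave 6 calls in place of 0. Without cells of neuron profile in NSC, calls became 1 in place of 0 for late BP against NSC and 3 in place of 1 for late NBN against NSC; leaving out 1 library gave 0 to 1 for BP and 1 for NBN. Causes were not tested. Onset of Slc1a2 was E17.5 at 10 TPM, E10.5 at any value above 0 and E17.5 without neuron profile cells. Onset of Apoe was P0 at 10 TPM and E15.5 without those cells, and Hopx had no onset at 10 TPM. At a share of 50%, onset without those cells was E10.5 for Fabp7 and E15.5 for Slc1a3, that of Slc1a2 was E10.5 at any value above 0, and that of Clu was P1 at 10 TPM and with all cells. With a filter at a mean of 10 TPM, Hopx and Aqp4 could not be tested.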
